A study of Mus musculus with 18 samples.

Results

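The aminoacyl-tRNA synthetase genes were followed in mouse acute myeloid leukemia (AML) treated with CX-5461, which inhibits RNA polymerase I, or with vehicle. The members were the genes whose symbol is a letter followed by "ars", with or without a final number, together with Eprs, Farsa and Farsb. By this rule 37 genes were found, 20 cytosolic and 17 mitochondrial (symbols ending in 2). All 37 were in each of the 3 deposited tables, which hold 12861 genes for p53null AML at 10 h, 12679 for p53WT AML at 10 h and 12838 for p53WT AML at 72 h. There were 18 samples in 6 groups of 3: CX-5461 and vehicle in p53null AML at 10 h, in p53WT AML at 10 h and in p53WT AML at 72 h. Every leukemia carried MLL/ENL and Nras and grew in C57BL/6 mice after syngeneic transplant, and mice were treated once disease was established. Tumour cells positive for GFP were sorted from bone marrow, and the libraries do not keep strand. The p53null and p53WT samples at 10 h carry different tags in their titles whose meaning is not given, so p53 status and the leukemia used cannot be told apart.

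Each synthetase joins an amino acid to its matching tRNAs, and the charged tRNAs are what ribosomes consume in translation. Most amino acids have a cytosolic enzyme and a separate nuclear-encoded enzyme that is imported into mitochondria to charge the tRNAs for the proteins that mitochondria make themselves. Glycine and lysine are exceptions, since Gars and Kars each serve both compartments. Eprs joins both glutamate and proline in the cytosol, while mitochondria use Ears2 and Pars2 for them. Several cytosolic enzymes sit in a multisynthetase complex held together by the scaffold proteins Aimp1, Aimp2 and Eef1e1. The transcription factor ATF4, which is translated when amino acids run short or proteins misfold, is known to drive many of the cytosolic synthetase genes, and few of the mitochondrial ones.

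Counts per library were available for p53WT AML at 10 h alone, with 37244725, 21578685 and 23150282 counts in CX-5461 libraries 1 to 3 and 48118513, 27921504 and 22090394 in vehicle libraries 1 to 3. Levels below are in CPM, the counts scaled to a common library total after TMM normalization. Trp53 had 183, 182 and 180.1 CPM with CX-5461 and 168, 142 and 160 CPM with vehicle. In the authors' deposited tables its mean level was 61.5 CPM in p53null AML and 169 CPM in p53WT AML at 10 h. The p53 target Cdkn1a had 232, 262 and 247 CPM with CX-5461 and 51.2, 55.3 and 48.7 CPM with vehicle. The vehicle libraries differed among themselves in markers of other marrow cells. The 14 measured erythroid markers summed to 247 to 452 CPM with CX-5461, against 5743, 19660 and 635 CPM in vehicle libraries 1 to 3. The 11 mature neutrophil markers summed to 2829 to 3960 CPM with CX-5461 and 7008 to 18980 CPM with vehicle. By the edgeR test described below, 9 of the 14 and 8 of the 11 fell. In such bulk libraries, fewer cells of a type and less RNA per cell cannot be told apart. The labels do not say that the samples of a group came from separate animals, so the p-values measure the spread between these samples.

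The cytosolic enzymes were mostly expressed at higher levels than the mitochondrial ones. Per kilobase of the longest coding transcript, the cytosolic genes had a median of 44.2 CPM with CX-5461 and 37.4 CPM with vehicle. The mitochondrial genes other than Lars2 had a median of 10.5 CPM per kilobase with CX-5461 and 9.53 with vehicle. Dars, the cytosolic aspartate enzyme, was the highest cytosolic gene at 136.5 CPM per kilobase with CX-5461 and 136.9 with vehicle. It was followed in vehicle by Nars (asparagine) at 76.1, Kars (lysine) at 75.2 and Vars (valine) at 73.0 CPM per kilobase. The vehicle libraries of those 3 genes overlapped, and the lowest cytosolic gene, Cars (cysteine), stood at 16.3 CPM per kilobase in vehicle, below the highest mitochondrial genes after Lars2, of which Cars2 had 20.1. Mars2, the mitochondrial methionine enzyme, was lowest of all in vehicle at 2.13 CPM per kilobase, on a transcript of 11294 bases, and had 2.76 with CX-5461, where Wars2 (tryptophan) was lower at 2.71.

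In p53WT AML at 10 h of CX-5461, synthetase genes of both compartments stood slightly higher than with vehicle, and 3 mitochondrial genes passed the test. These were Yars2, Mars2 and Vars2, the mitochondrial tyrosine, methionine and valine enzymes. They make 3 of 37 members, or 8.11%, where 8.1% of all 12679 genes passed (3.78% higher and 4.32% lower). This share is close to that of all genes. No member fell, although 2 had an unadjusted p under 0.05 with a negative fold change (edgeR). By that measure 2117 of all 12679 genes were lower and 1862 higher. DESeq2 and limma-voom called none lower either. The median log2 fold change over the 37 members was 0.15, against 0.00 over all genes, and 30 of the 37 were positive (81.1%, against 50.8% of all genes).

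Yars2 had 32.2, 30.4 and 31.5 CPM with CX-5461 and 25.9, 23.6 and 23.9 CPM with vehicle. Every CX-5461 library lay above every vehicle library, and the log2 fold change was 0.36 (SE 0.0653; adjusted p = 0.0348, quasi-likelihood test of edgeR, Benjamini-Hochberg over all genes). Mars2 had 31.6, 30.6 and 31.1 CPM with CX-5461 and 24.8, 22.02 and 25.5 CPM with vehicle. The groups were again apart, with a log2 fold change of 0.37 (SE 0.0733; adjusted p = 0.0386, edgeR). Vars2 had 57.7, 55.9 and 55.2 CPM with CX-5461 and 47.6, 46.9 and 49.9 CPM with vehicle. Its log2 fold change was 0.23 (SE 0.0503; adjusted p = 0.0438, edgeR), and 8.52% of its exon bases overlap an antisense gene that unstranded libraries cannot separate from it. All 3 calls were lost when any CX-5461 library was left out, settings in which 23 or 24 genes of the whole table were called higher and at most 1 lower, and none of the 37 members passed in the authors' deposited table of p53WT AML at 10 h, where 10.4% of all genes did (3.57% higher and 6.83% lower).

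No cytosolic member passed with edgeR's quasi-likelihood test or with limma-voom, although 11 of the 20 had an unadjusted p under 0.05, all with positive fold changes. Of all 12679 genes 3979 had an unadjusted p under 0.05 by edgeR, 1862 of them with positive fold changes. DESeq2 called 5 of them higher (Eprs, Farsa, Farsb, Iars and Tars), and over all genes it called 7.72% higher and 10.8% lower, where limma-voom called 3.11% higher and 2.6% lower. Eprs had 245, 241 and 232 CPM with CX-5461 and 200.1, 162 and 199 CPM with vehicle, and Farsa, the catalytic subunit of the phenylalanine enzyme, had 168, 156 and 160.1 CPM with CX-5461 and 142, 112 and 121 CPM with vehicle. In both genes every CX-5461 library was above every vehicle library. The log2 fold change of Eprs was 0.36 (SE 0.0860; adjusted p = 0.0508, edgeR). That of Farsa, the largest among cytosolic members, was 0.37 (SE 0.0895; adjusted p = 0.0509, edgeR). At the other end stood Sars, the serine enzyme, with 99.0, 100.8 and 96.5 CPM with CX-5461 and 107, 106 and 96.4 CPM with vehicle. Its groups overlapped, with a log2 fold change of -0.07 (adjusted p = 0.45, edgeR).

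Summed over the 20 cytosolic genes, the level was 3150, 3106 and 3126 CPM with CX-5461 and 2958, 2699 and 2795 CPM with vehicle. Over the 16 mitochondrial genes other than Lars2 the sum was 569, 562 and 570 CPM with CX-5461 and 522, 479 and 525 CPM with vehicle. For both sums the CX-5461 libraries agreed more closely than the vehicle libraries, 3127 ± 22.1 against 2817 ± 131 CPM for the cytosolic genes and 567 ± 4.53 against 508 ± 25.5 CPM for the mitochondrial ones (SD, n = 3 each). Vehicle library 2, which had the highest erythroid sum, had the lowest synthetase sums. The order did not hold throughout. Vehicle library 3, with the lowest erythroid sum among vehicle libraries, had a lower cytosolic sum than vehicle library 1 (2795 against 2958 CPM). Its mitochondrial sum was slightly higher (525 against 522 CPM). The 11 leukemia and myeloid progenitor markers summed to 17510 to 17540 CPM with CX-5461. In vehicle libraries 1 to 3 they summed to 17070, 13110 and 14710 CPM. Their median log2 fold change was 0.19, with 9 of 11 positive and 0 past the edgeR test. How far the synthetase shift follows that of these markers was not tested. With the mean erythroid marker level as a covariate, no member passed, where 20 of all 12679 genes did. The median log2 fold change was then 0.12 for cytosolic and 0.03 for mitochondrial members. This covariate, in log2 CPM, was 1.51 to 2.05 with CX-5461 and 3.48 to 8.22 with vehicle. It therefore cannot be fully told apart from treatment.

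Every CX-5461 library stood above every vehicle library for 24 of the 37 members (64.9%), against 19.9% of all genes. Those were 13 cytosolic and 11 mitochondrial genes, and 11 members overlapped, 7 cytosolic and 4 mitochondrial. For 2 mitochondrial genes, Fars2 among them, every CX-5461 library was below (19.1% of all genes). Fars2, the mitochondrial phenylalanine enzyme, had 12.8, 14.7 and 12.8 CPM with CX-5461 and 15.2, 16.03 and 15.8 CPM with vehicle. It did not pass the test, with a log2 fold change of -0.23 (adjusted p = 0.133, edgeR). The medians of the compartments were close, 0.19 for the 17 mitochondrial and 0.14 for the 20 cytosolic genes.

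**Figure D1:**
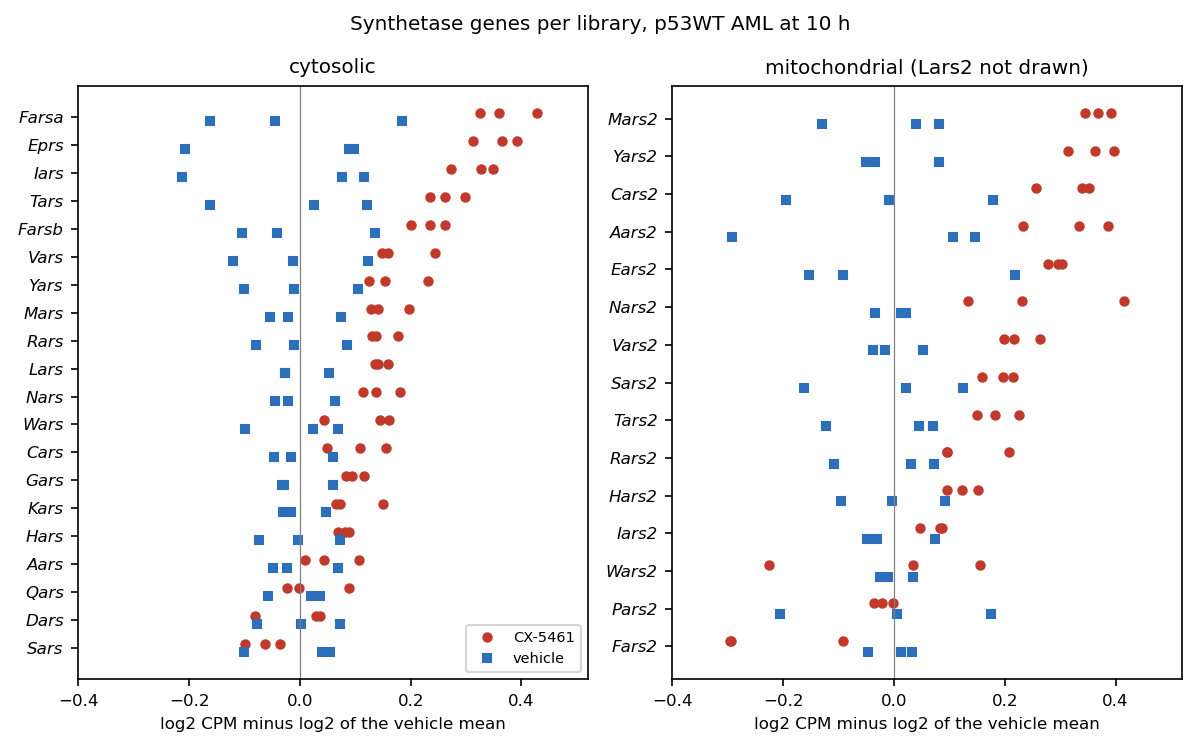
Each point is a library of p53WT AML at 10 h, and the horizontal axis gives log2 CPM minus the log2 of the gene's vehicle mean for the 20 cytosolic genes (left) and 15 mitochondrial genes (right, Lars2 and 1 other member not drawn), ordered by fold change. CX-5461 points lie right of all vehicle points for 24 of the 37 members, while those of Fars2 lie left.

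Groups of cytosolic enzymes had median log2 fold changes of 0.10 to 0.15 at 10 h. The 8 enzymes of the multisynthetase complex had a median of 0.15, with 7 of 8 positive. The 11 genes listed as ATF4-responsive had a median of 0.14 with 10 of 11 positive, and the other 9 cytosolic genes had 0.15 with 8 of 9 positive. No gene of these groups passed the edgeR test, and unadjusted p was under 0.05 for 5, 6 and 5 of them in that order. Over all 12679 genes it was under 0.05 for 3979. By fold, the 10 class I cytosolic enzymes, which share the Rossmann-fold catalytic domain, were all positive, with a median of 0.15. Of the 10 class II enzymes, whose catalytic domain is built on an antiparallel sheet, 8 were positive, with a median of 0.10. Eprs, which joins proline as well as glutamate, was counted in class I alone. Both subunits of the phenylalanine enzyme, Farsa and Farsb, were counted in class II.

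Of 13 measured genes that work beside the synthetases, Eef1e1 rose in p53WT AML at 10 h. This scaffold of the multisynthetase complex had 44.7, 45.0 and 41.2 CPM with CX-5461 and 36.3, 31.7 and 33.2 CPM with vehicle. The groups did not overlap, with a log2 fold change of 0.37 (SE 0.0712; adjusted p = 0.0364, edgeR). The share called, 1 of 13 or 7.69%, was close to that of all genes. Of 20 measured genes of the ATF4 pathway, Sesn2 (log2 fold change 1.76, adjusted p = 0.0113, edgeR) and Ddit4 (1.30, adjusted p = 0.0160, edgeR) rose, and both are also known p53 targets. They make 10% of the 20, beside 3.78% of all genes that rose, and 10 of the 20 were negative. In the authors' deposited table Ppp1r15a (-3.38, FDR 8.31e-06, edgeR) and Chac1 (-0.62, FDR 0.0110, edgeR) fell as well, beside 6.83% of all genes. Neither passed the quasi-likelihood test (adjusted p = 0.0594 and 0.0513, edgeR). Ppp1r15a had 34.9, 101.3 and 5.91 CPM in vehicle libraries 1 to 3 and 4.85, 4.41 and 4.34 CPM with CX-5461. Its vehicle libraries stood in the order of their erythroid sums, and a link was not tested. Atf4 itself had 242, 236 and 234.5 CPM with CX-5461 and 232, 249 and 205 CPM with vehicle, and its groups overlapped. Without Sesn2 and Ddit4 the pathway's median log2 fold change was -0.03. Myc, a known activator of synthetase genes, had 238, 243 and 221 CPM with CX-5461 and 202, 153 and 206 CPM with vehicle, with a log2 fold change of 0.32 (adjusted p = 0.107, edgeR).

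In p53null AML at 10 h no synthetase gene passed in the authors' deposited table (edgeR, FDR under 0.05), where 0.187% of all genes passed (0.148% higher and 0.0389% lower), and 1 of 37 had an unadjusted p under 0.05. The middle of the 37 log2 fold changes in the authors' deposited table lay between -0.05 and 0.03 (quartiles), with a median of -0.01, and both compartments had a median of -0.01. In the same authors' deposited table Yars2, Mars2 and Vars2 had log2 fold changes of -0.01, -0.03 and -0.02. Eprs and Farsa, which led the cytosolic genes of p53WT AML at 10 h, had log2 fold changes of -0.01 and 0.06 in the authors' deposited table of p53null AML. None of the 13 partner genes and none of the 21 ATF4 pathway genes passed there (edgeR), with 0 and 1 of them at an unadjusted p under 0.05. The difference between the leukemias was not tested, since counts of p53null AML were not used here.

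At 72 h in p53WT AML the compartments moved apart. In the authors' deposited table positive log2 fold changes were found for 17 of 20 cytosolic genes, with a median of 0.10, and negative ones for 16 of 17 mitochondrial genes, with a median of -0.20, or -0.19 without Lars2. The median over all genes of the authors' deposited table was -0.01. Past an FDR of 0.05 the authors' deposited table (edgeR) held 3 cytosolic genes that rose, 15% of 20, beside 16.1% of all genes. It held 5 mitochondrial genes that fell, 29.4% of 17, beside 15.1% of all genes. Without Lars2, whose call is uncertain as described below, 4 of 16 mitochondrial genes fell (25%). Those shares use a table in which 31.2% of genes passed in either direction. No cytosolic member fell and no mitochondrial member rose past that FDR in the authors' deposited table. Tarsl2, a threonine enzyme left out of both counts by the symbol rule, fell there, with a log2 fold change of -0.41 (FDR 0.000603, edgeR).

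The cytosolic genes that rose at 72 h were Iars, Nars and Aars, the isoleucine, asparagine and alanine enzymes. In the authors' deposited table the log2 fold changes were 0.24 for Iars (FDR 0.0113, edgeR), 0.23 for Nars (FDR 0.0119) and 0.19 for Aars (FDR 0.0441). At 10 h Iars had 208, 200 and 211 CPM with CX-5461 and 179, 143 and 175 CPM with vehicle, a log2 fold change of 0.32 (adjusted p = 0.0656, edgeR) with groups that did not overlap. Nars had 237, 229.9 and 226 CPM with CX-5461 and 218, 206 and 203 CPM with vehicle, also without overlap. Aars had 208.5, 204 and 218 CPM with CX-5461 and 212, 199 and 196 CPM with vehicle, and its groups overlapped at 10 h. All 3 belong to the ATF4-responsive list, of which 3 of 11 (27.3%) rose, beside 16.1% of all genes, and 10 of 11 were positive at 72 h in the authors' deposited table, with a median of 0.15. Among the other 9 cytosolic genes none passed there, 1 had an unadjusted p under 0.05 and the median was 0.06. Over all 12838 genes of the authors' deposited table, 5124 had an unadjusted p under 0.05 (edgeR). The difference between these lists was not tested. Dars had the lowest cytosolic log2 fold change, -0.16, in the authors' deposited table (FDR 0.0894, edgeR).

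The promoters of Aars and Iars are shown because these genes rose at 72 h and hold TGATGCA, the core of the element that ATF4 binds, within 250 bases before and 50 bases after the start. The sequences are from RefSeq on GRCm38.p6 and run 5′ to 3′ on the gene's strand, Aars at chr8:111033592-111033891 and Iars at chr13:49681880-49682179, both on the plus strand. Capitals mark CACGTG, an E-box of the kind that Myc binds, which comes first in each, and then the ATF4 core, read here on the other strand as TGCATCA.
Aars promoter: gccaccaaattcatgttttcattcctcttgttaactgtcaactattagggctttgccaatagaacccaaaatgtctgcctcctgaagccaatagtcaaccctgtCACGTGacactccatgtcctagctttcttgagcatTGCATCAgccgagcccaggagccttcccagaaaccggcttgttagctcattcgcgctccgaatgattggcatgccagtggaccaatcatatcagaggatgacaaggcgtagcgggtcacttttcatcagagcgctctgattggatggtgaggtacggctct
Iars promoter: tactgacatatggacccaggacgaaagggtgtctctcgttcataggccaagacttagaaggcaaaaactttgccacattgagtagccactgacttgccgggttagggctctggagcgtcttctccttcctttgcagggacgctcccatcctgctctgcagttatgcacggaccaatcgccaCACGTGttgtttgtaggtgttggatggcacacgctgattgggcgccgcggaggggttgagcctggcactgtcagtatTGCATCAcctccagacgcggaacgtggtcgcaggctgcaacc
The ATF4 core begins 111 bases before the Aars start and at base 9 after the Iars start, and the E-box begins 146 and 69 bases before them. Promoter entries were found for 27 of the 37 members. Nars, which also rose at 72 h, had no entry, so its promoter was not searched. The ATF4 core, on either strand, was in 4 of 13 cytosolic promoters (Aars, Iars, Tars and Yars) and in 0 of 14 mitochondrial ones, against 3.63% of 27025 genes. The E-box was in 4 of 13 cytosolic promoters (Aars, Farsb, Iars and Tars) and in 1 of 14 mitochondrial ones (Ears2), against 8.09% of genes. The letters of the motifs do not overlap each other in these windows, and a match describes the sequence without showing that a factor binds.

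The 5 mitochondrial genes that fell at 72 h included Pars2, Lars2, Fars2 and Hars2. Pars2, the proline enzyme, had a log2 fold change of -0.67 (FDR 4.15e-06) in the authors' deposited table (edgeR). Fars2 stood at -0.35 (FDR 0.00340) and Hars2, the histidine enzyme, at -0.31 (FDR 0.00646) in the authors' deposited table (edgeR). At 10 h Pars2 had 12.6, 12.7 and 12.9 CPM with CX-5461 and 13.0, 11.2 and 14.6 CPM with vehicle, with overlapping groups. Hars2 had 38.3, 36.8 and 37.5 CPM with CX-5461 and 32.3, 34.4 and 36.7 CPM with vehicle at 10 h, every CX-5461 library being just above. Fars2 already stood below vehicle in every CX-5461 library at 10 h. Besides Lars2, the members past the FDR of 0.05 were all class II enzymes, 4 of 8 mitochondrial genes of that class (50%), beside 15.1% of all genes that fell. Of the 9 mitochondrial class I genes 8 were negative, with a median of -0.17, against -0.23 for class II. Among them Ears2, at -0.27, narrowly missed (FDR 0.0579, edgeR). The difference between the classes was not tested. Hars2 and Hars lie head to head and share 195 exon bases on opposite strands, which these libraries cannot separate. Fars2 overlaps Nrn1 and Lyrm4 in the same way, over 8.72% and 2% of its exon bases. Yars2, Mars2 and Vars2, which rose at 10 h, had log2 fold changes of -0.05, -0.20 and -0.20 in the authors' deposited table at 72 h and did not pass (FDR 0.747, 0.160 and 0.160, edgeR).

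**Figure D2:**
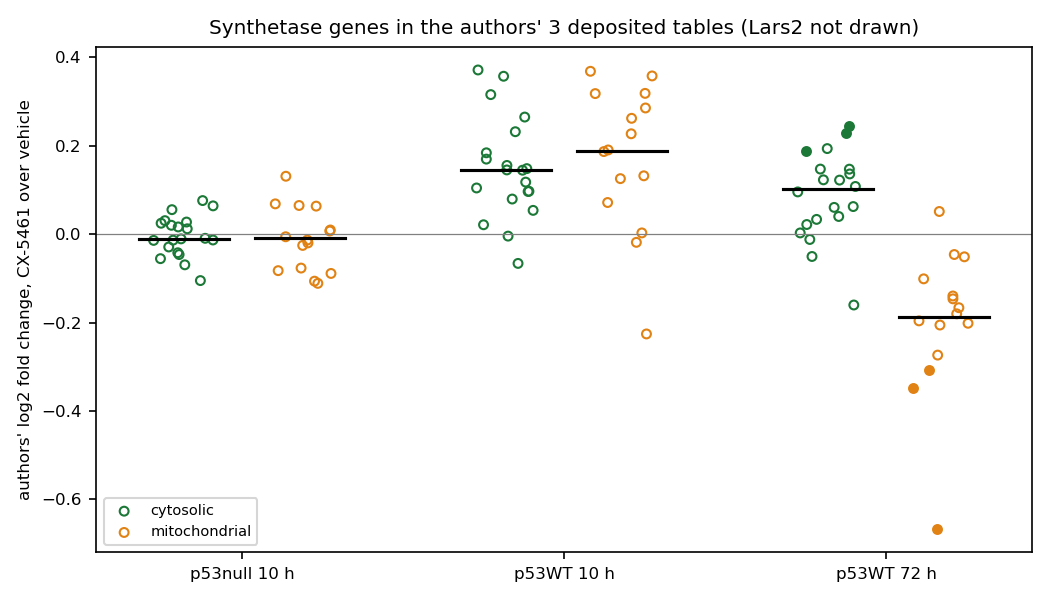
Points are members in the authors' 3 deposited tables, with the authors' log2 fold change of CX-5461 over vehicle on the vertical axis, bars at the median of each compartment, filled points past an FDR of 0.05, and Lars2 and 1 other member not drawn as points. In p53WT AML at 72 h the cytosolic median is 0.10 and the mitochondrial median without Lars2 is -0.19, while both are -0.01 in p53null AML at 10 h.

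Compared amino acid by amino acid, the mitochondrial enzyme stood below its cytosolic partner in 15 of 15 pairs at 72 h in the authors' deposited table. The difference in log2 fold change had a median of -0.29 and ran from -1.36 for leucine to -0.05 for serine, and 14 of 14 pairs remained on that side without leucine. The widest gap after leucine was -0.41 for histidine, where Hars2 had -0.31 and Hars 0.11 in the authors' deposited table. Glutamate came next at -0.40, with Ears2 at -0.27 and Eprs at 0.12 in the authors' deposited table. Fars2 and Pars2 have no single partner of their own. Fars2, at -0.35, stood below Farsa at 0.06 and Farsb at 0.10, and Pars2, at -0.67, below Eprs at 0.12, all in the authors' deposited table. Isoleucine had the only positive mitochondrial value, 0.05 for Iars2 against 0.24 for Iars in the authors' deposited table. In p53null AML at 10 h the mitochondrial enzyme was lower in 6 of 15 pairs, and in p53WT AML at 10 h in 7 of 15, by the authors' deposited tables. Whether 72 h differed from 10 h was not tested, since no counts at 72 h were used here.

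**Figure D3:**
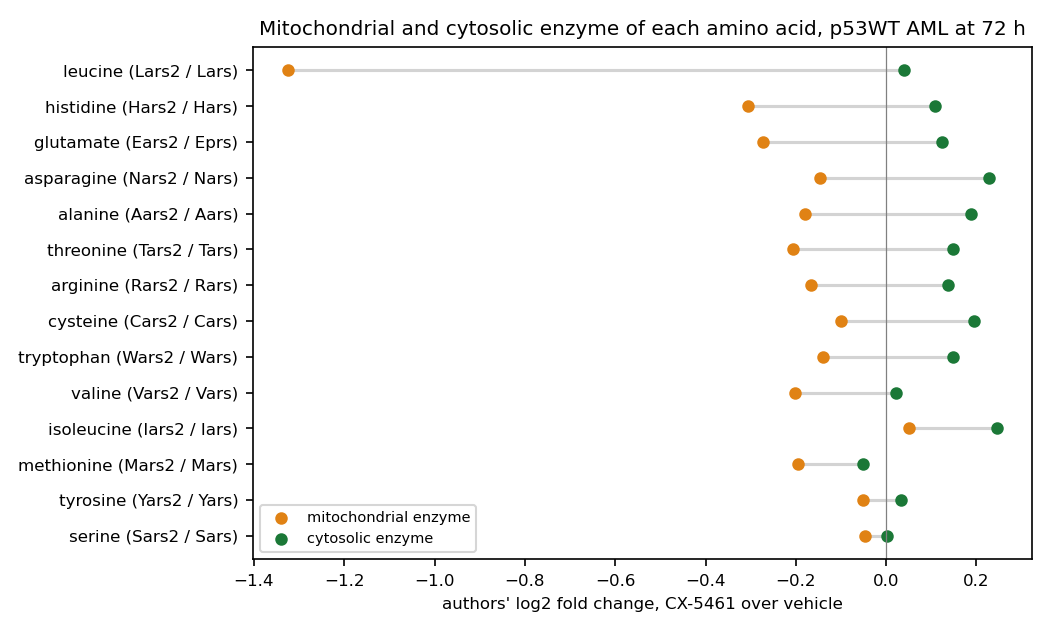
Each line joins the mitochondrial and the cytosolic enzyme of an amino acid in p53WT AML at 72 h, with the authors' log2 fold change of CX-5461 over vehicle on the horizontal axis. The mitochondrial point is left of the cytosolic point in all 14 pairs drawn, by 1.36 for leucine and by 0.05 for serine.

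Among the 13 partner genes at 72 h none rose and 4 (30.8%) fell in the authors' deposited table, beside 16.1% of all genes that rose and 15.1% that fell. Pstk and Sepsecs, which act in turn to make selenocysteine on its tRNA, had log2 fold changes of -0.75 (FDR 2.93e-06) and -0.43 (FDR 0.000435) in the authors' deposited table (edgeR). Tarsl2, a further threonine enzyme outside the symbol rule, stood at -0.41 (FDR 0.000603), and Gatb, a subunit of the mitochondrial amidotransferase that makes glutaminyl-tRNA, at -0.34 (FDR 0.00245), in the authors' deposited table (edgeR). Of the ATF4 pathway, 8 of 20 genes (40%) rose and none fell in the authors' deposited table, beside 16.1% and 15.1% of all genes. Without the p53 targets Sesn2 and Ddit4, 6 of 18 (33.3%) rose, and the median log2 fold change was 0.16. Sesn2 rose by 1.53 (FDR 2.70e-34), Atf4 by 0.61 (FDR 8.79e-07), Atf5 by 0.54 (FDR 2.39e-06) and Ddit4 by 0.60 (FDR 0.00292) on the log2 scale of the authors' deposited table (edgeR). Ddit3, whose exons overlap those of Mars by 68 bases on the other strand, is among the 8. Myc fell by 0.77 (FDR 1.02e-09) in the authors' deposited table (edgeR).

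Markers of other cells moved at 72 h too. In the authors' deposited table all 11 mature neutrophil markers rose with a median log2 fold change of 1.25, 6 of 8 macrophage markers rose with a median of 2.96, and 8 of 14 erythroid markers rose with a median of 1.15. Of 11 leukemia and myeloid progenitor markers, 2 rose and 6 fell, with a median of -0.22. The part of these shifts in the synthetase values was not tested.

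Lars2 stood apart from every other member. The mitochondrial leucine enzyme had 606, 1424 and 664 CPM with CX-5461 and 1661, 2561 and 453 CPM with vehicle in p53WT AML at 10 h. The groups overlapped, the log2 fold change was -0.80 (SE 0.604; adjusted p = 0.401, edgeR), and its vehicle mean of 400.2 CPM per kilobase was far above all other members. Lars2 alone was 46.3% to 84.2% of the mitochondrial synthetase sum of a library. Its level followed that of Gm15564, a noncoding gene on another chromosome that was chosen after its values were seen. The ratio of Lars2 to Gm15564 was 48.7, 47.4 and 49.3 in the CX-5461 libraries and 45.2, 47.7 and 47.5 in the vehicle libraries, while Lars2 itself varied more widely within each group. The annotated transcripts of both genes share an identical stretch of 52 bases on the same strand. It begins at base 3278 of the 3894-base Lars2 transcript, in the untranslated end that starts at base 2906. In the authors' deposited tables Lars2 and Gm15564 had log2 fold changes of -0.07 and -0.07 in p53null AML at 10 h and of -1.32 and -1.41 in p53WT AML at 72 h. The Lars2 call at 72 h (FDR 8.53e-05 in the authors' deposited table, edgeR) is therefore reported as uncertain, and the compartments are compared with and without it.

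**Figure D4:**
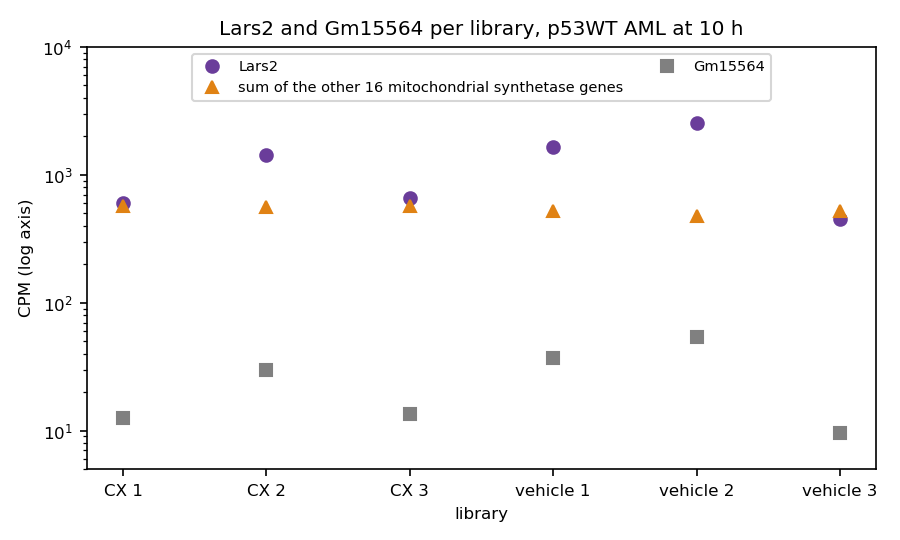
CPM on a log axis in the 6 libraries of p53WT AML at 10 h, CX-5461 libraries left of vehicle libraries, for Lars2, for Gm15564 and for the sum of the other 16 mitochondrial synthetase genes. Lars2 and Gm15564 move together at a ratio of 45.2 to 49.3, while the sum of the other genes stays between 479 and 570 CPM.

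The level of the synthetase genes also differed between the leukemias. In the authors' deposited tables, which average CX-5461 and vehicle libraries and were normalized separately, the cytosolic genes stood higher in p53null AML at 10 h than in p53WT AML at 10 h by a median of 0.52 on the log2 scale. Of the 20 genes 18 were higher and 10 were higher by more than 0.5, beside a median of -0.07 and 13.9% above 0.5 among 11712 genes shared by the authors' deposited tables. The 16 mitochondrial genes other than Lars2 had a median difference of 0.04, with none above 0.5. The p53WT tables at 72 h and 10 h, by comparison, differed by a median of -0.02 over the cytosolic genes.

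The cytosolic difference was larger for the ATF4-responsive enzymes. Over these 11 genes the median difference was 0.91 and 9 exceeded 0.5 in the authors' deposited tables, while over the other 9 the median was 0.41 and Lars alone exceeded 0.5. Yars, the tyrosine enzyme, had a mean of 179 CPM in p53null AML and 72.7 CPM in p53WT AML in the authors' deposited tables. Sars had 216 CPM in p53null AML and 100.9 CPM in p53WT AML, and Nars had 443 CPM in p53null AML and 219 CPM in p53WT AML, in the authors' deposited tables. Farsa and Dars went the other way, at 124 CPM in p53null AML against 143 CPM in p53WT AML for Farsa, and at 263 against 297 CPM for Dars, in the authors' deposited tables. The ATF4 pathway genes differed in the direction of the responsive enzymes, by a median of 1.63 over 19 genes with 16 above 0.5. Marker levels differed as well, by a median of -5.01 over 6 erythroid, 1.11 over 7 macrophage, 0.63 over 11 mature neutrophil (8 above 0.5) and -0.79 over 11 leukemia and myeloid progenitor markers, and their part in the synthetase difference was not tested. Phgdh, the first enzyme of serine synthesis, had 219 CPM in p53null AML and 25.2 CPM in p53WT AML in the authors' deposited tables, and Slc7a11, the cystine transporter, had 47.7 CPM in p53null AML and 3.79 CPM in p53WT AML. These are levels of leukemias with different tags, with no value per library for p53null AML, and no test was run.

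**Figure D5:**
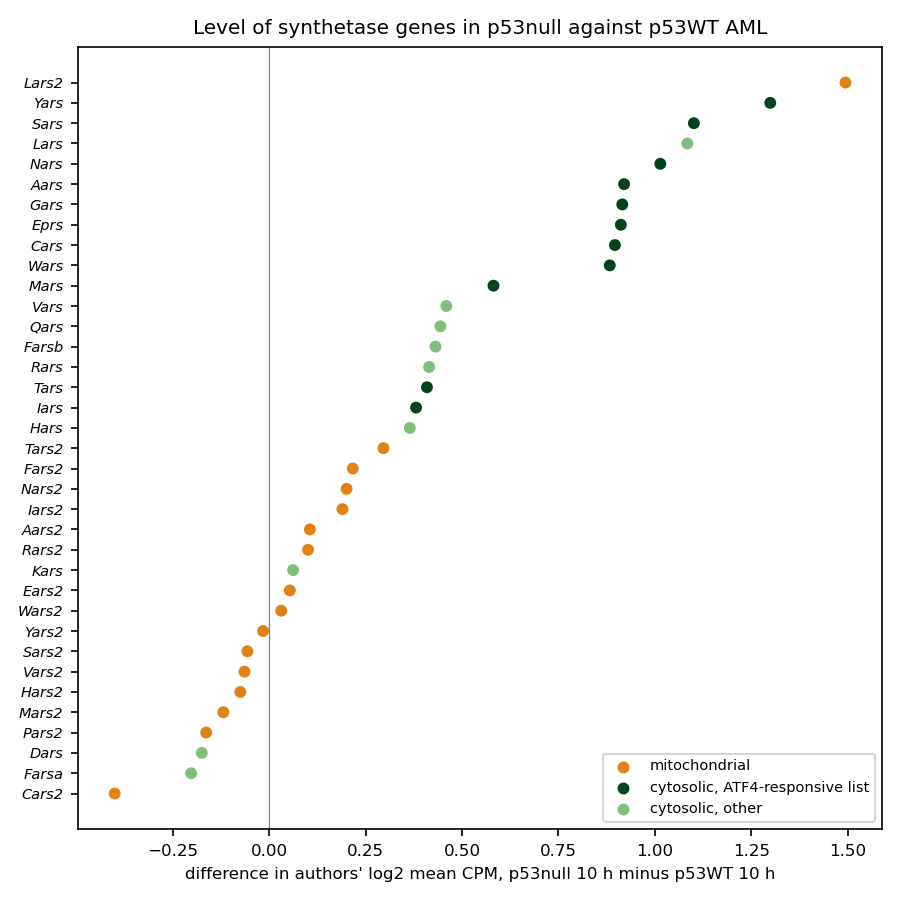
The horizontal axis gives the difference in the authors' log2 mean CPM, p53null AML at 10 h minus p53WT AML at 10 h, for 36 of the 37 members, colored by compartment and by membership of the ATF4-responsive list. The ATF4-responsive cytosolic genes run from 0.38 to 1.30, and the mitochondrial genes other than Lars2 from -0.40 to 0.30.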

How the data were processed

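RNA sequencing of 18 samples was analysed from 3 deposited tables. The submitters' processing notes name edgeR, HTSeq, Bowtie and CASAVA 1.8.2 and the mm9 build, without settings. Per the file headers, the deposited tables hold a log2 fold change, p-value, FDR and log2 mean CPM for each gene, and the p53WT 10 h table also holds raw counts for 6 libraries. Its count columns name the arm and a number from 1 to 3. Symbols were looked up by Ensembl ID.

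The edgeR 4.0.16 quasi-likelihood test (R 4.3.3, TMM scaling, two-sided) was run on the counts, with Benjamini-Hochberg adjustment over 12679 genes and a threshold of 0.05. The script was tested on simulated counts. The authors' log2 fold changes correlated at r = 0.993 across genes with the log2 ratio of CX-5461 to vehicle CPM. The other 2 tables hold no counts, so their orientation was assumed to be the same and the authors' FDR was used. Transcript lengths and overlaps came from GENCODE M21, and promoters from RefSeq. In total 14 members have exons that overlap another gene. Proteins were not searched, and 1 mitochondrial member enters the counts, sums and medians but is not reported here on its own. limma-voom (limma 3.58.1), DESeq2 1.42.0, RLE scaling, a minimum of 5 CPM, leaving out libraries and an erythroid covariate were alternatives.

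The members and gene lists were chosen with earlier results of these data known. Values per library are given for members that passed in a table (the 6 with the smallest p of a table, with Nars and Aars added after their values were seen) and for those with the largest and smallest fold change of a compartment, and up to 4 genes per further list.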

Additional observations from a re-analysis of the deposited data

How the results depend on the processing

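In p53WT AML at 10 h, 3 members were higher with the edgeR quasi-likelihood test, with RLE scaling and with limma-voom. The count was 5 with a minimum mean of 5 CPM (515 higher and 656 lower among all 10381 genes kept), 9 with DESeq2 (960 higher and 1346 lower among all genes, against 479 and 548 with edgeR), 0 with the erythroid covariate, 0 by the authors' deposited FDR, and between 0 and 8 when libraries were left out in turn. It was 0 without any of the 3 CX-5461 libraries, where 23 or 24 of all genes were higher and at most 1 lower. Without vehicle libraries 1, 2 and 3 it was 8, 6 and 5. Among all genes 817, 570 and 474 were then higher, and 861, 665 and 840 lower. No member was lower under any of these settings, and no called member changed sign. With the erythroid covariate 20 genes of the whole table passed, and the cause of the lost calls was not tested. At 72 h in the authors' deposited table, 0 members were higher at an FDR of 0.01 and 4 at 0.1, while 4 were lower at 0.01 and 8 at 0.1. The shares of all genes at these 72 h cut-offs were not counted. The median mitochondrial minus cytosolic log2 fold change at 72 h was -0.30, and -0.29 without Lars2. In p53null AML at 10 h it was -0.0034, and 0.0004 without Lars2, an alternative chosen after seeing the data. No paired analysis was possible because the count columns are numbered 1 to 3 while the sample titles of that comparison carry other numbers. The lowest members stood near 10 CPM, and the depth of the other 2 tables is unknown.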

Other observations

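Of the genes annotated as microRNAs, 5 known only by model names were looked at after their values were seen. Their levels followed that of Lars2 across the libraries of p53WT AML at 10 h. Between the leukemias they did not. From p53WT to p53null AML at 10 h the authors' deposited mean of Lars2 went from 1225 to 3450 CPM. That of Gm23935 went from 117 to 90.4, of Gm24270 from 48.5 to 43.9 and of Gm24245 from 21.5 to 21.6 CPM. Gm24187 went from 32.0 to 43.2 and Gm25911 from 18.8 to 28.1 CPM. In p53WT AML at 10 h, Gm24270 had 27.8, 58.4 and 30.9 CPM in CX-5461 libraries 1, 2 and 3 and 61.7, 94.6 and 17.9 CPM in vehicle libraries 1, 2 and 3. All 5 fell at 72 h in the authors' deposited table (edgeR), with log2 fold changes between -1.30 for Gm25911 (FDR 0.000516) and -1.03 for Gm24245 (FDR 0.00690). In p53null AML at 10 h the log2 fold changes in the authors' deposited table were -0.25 for Gm25911, -0.21 for Gm24245 and -0.07 for Lars2.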
